A study of Mus musculus with 2 samples.

Results

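The genes described here are 9 protein-coding genes of phosphoinositide 3-kinase (PI3 kinase) signalling, out of 20250 protein-coding genes with a name in the deposited expression table. They were chosen by name, for their place in the pathway. They comprise the class I catalytic subunits *Pik3ca*, *Pik3cb*, *Pik3cd* and *Pik3cg*, the regulatory subunit *Pik3r1*, the adaptor *Pik3ap1*, the lipid phosphatase *Inpp5d*, and the kinases *Akt1* and *Akt2*. Every RefSeq transcript of these genes with an NM_ (protein-coding) identifier was kept, which gave 21 transcripts. Their levels were compared between mouse pre-pro-B cells, B lineage progenitors arrested before commitment, and pro-B cells, the next stage, in 1 RNA-seq library each. The pre-pro-B cells were *Ebf1* -/- and came from female fetal liver, and the pro-B cells were *Rag2* -/- and came from adult male bone marrow, both on a C57BL/6 background. Both were cultured on OP-9 stromal cells with Il-7 at 5 ng/mL, and the pre-pro-B cells alone also received Scf and Flt3l, each at 10 ng/mL. Loose stromal cells were removed by letting them attach to a fresh flask. Cell stage, genotype, sex, age, tissue of origin and cytokines thus cannot be told apart in any difference below, and with 1 library per cell type none has a replicate check or a test. In such bulk RNA, fewer cells of a type and less RNA per cell also cannot be told apart.

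Class I PI3 kinases are pairs of a catalytic and a regulatory subunit that phosphorylate a membrane lipid to make PIP3. PIP3 recruits proteins with pleckstrin homology domains, among them Akt, Btk and the guanine nucleotide exchange factors of the Vav family. The phosphatases Inpp5d (SHIP1) and Inppl1 (SHIP2) remove a phosphate from PIP3 and leave another lipid messenger. In early B cells the pathway acts downstream of cytokine receptors and of the pre-B and B cell receptors, and Akt keeps the transcription factor Foxo1 out of the nucleus.

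Levels are given as FPKM, sequenced fragments scaled to the length of the transcript and the size of the library, which the authors estimated with Cuffdiff for each RefSeq transcript. Since FPKM is per length, the levels of different genes may be compared within a library. Cuffdiff gave each transcript a 95% confidence interval, quoted below in brackets, which rests on no replicate culture. A level of a gene is the sum of the FPKM over its transcripts and has no interval. A gene was called different when log2 of (FPKM + 1) in pro-B cells minus the same in pre-pro-B cells was at least 1 or at most -1, which is a 2-fold difference, and this log2 ratio understates the difference of genes with a low FPKM. Of the 10528 genes with at least 1 FPKM in a library, 19.1% were called lower and 12.2% higher in pro-B cells (31.3% in either direction), and the median log2 ratio was -0.14.

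The targeted genes were examined as a check of the labels. *Ebf1* had an FPKM of 64.0 [2.78 to 149] in the pre-pro-B library against 273 [8.50 to 729] in the pro-B library. *Rag2* had an FPKM of 34.5 [2.88 to 66.7] in the pre-pro-B library against 22.9 [1.75 to 44.3] in the pro-B library. Each was lower in the library in which it had been targeted, neither was listed at 0, and the intervals overlapped. *Ebf1* was called different (log2 ratio 2.07) but lay at the 90.7th percentile of all genes counted in its null library, and *Rag2* lay within 2-fold (log2 ratio -0.57) and at the 68.6th percentile in its own. All 8 B lineage markers examined were called higher in pro-B cells, with a summed FPKM of 32.9 in the pre-pro-B library against 2776 in the pro-B library. Markers of other lineages were higher in the pre-pro-B library. The summed FPKM of 4 progenitor markers (*Kit*, *Flt3*, *Cd34*, *Satb1*) was 1143 there and 4.81 in pro-B cells, that of 6 myeloid and NK markers was 919 and 9.26, and that of 6 T lineage markers was 80.1 and 0.295, in the same order. All 4, 5 and 4 markers of these lists with at least 1 FPKM in a library were called lower in pro-B cells. Of the myeloid and NK markers *Tyrobp* was the most abundant, at 463 FPKM in the pre-pro-B library, while *Csf1r*, a receptor of the monocyte and macrophage lineage, was near 0 there (FPKM 0.170) and listed at 0 in pro-B cells. *Fcer1g* followed at 395 in the pre-pro-B library, with *Mpo* at 35.7, *Itgam* at 19.7 and *Lyz2* at 5.39. In pro-B cells *Itgam* was the most abundant of these 6 markers, at 6.40 of the summed 9.26. The T lineage sum there was mostly *Tcf7* and *Cd3g*, at 38.9 and 36.8. *Cd3e*, *Cd8a* and *Cd4*, which define T cells, were at 0.239, 0.322 and 1.15 in that library. The summed FPKM of 7 stromal markers was 19.0 in the pre-pro-B library against 10.9 in the pro-B library, but *Pdgfrb* alone gave it that direction. Without *Pdgfrb* the sum was 3.13 against 10.5, and each of the other 6 markers had a higher FPKM in pro-B cells. The part of these other cells in the levels of the PI3 kinase genes was not tested.

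All 9 genes reached 1 FPKM in a library. Of these, 3 were called lower in pro-B cells (33.3%, beside 19.1% of all genes): *Pik3r1*, *Pik3cd* and *Pik3cb*. None was called higher (beside 12.2% of all genes), and 6 lay within 2-fold. The median log2 ratio over the 9 genes was -0.35. None of their 19 transcripts with at least 1 FPKM in a library had Cuffdiff intervals that failed to overlap between the cell types, against 4.4% of the 12875 such transcripts in the whole table. The intervals of every transcript of the 3 genes called by fold overlapped between the cell types.

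**Figure D1:**
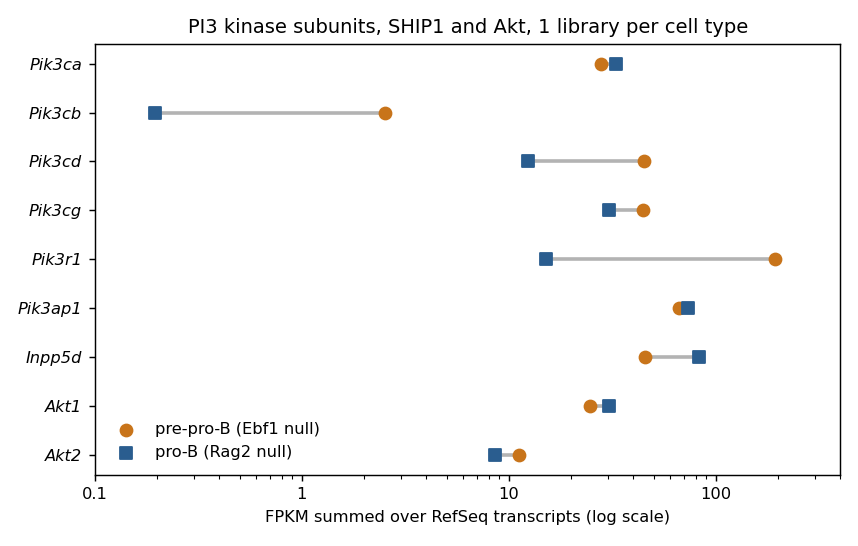
FPKM summed over transcripts (horizontal log axis) of the 9 genes in the pre-pro-B library and in the pro-B library, 1 circle and 1 square per gene joined by a line. *Pik3r1* spans a wide range, from 193 in pre-pro-B to 15.1 in pro-B cells, and *Pik3cb* is the lowest gene in both.

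The order of the genes differed between the libraries. In pre-pro-B cells *Pik3r1* was the most abundant of the 9, followed by *Pik3ap1*, *Inpp5d*, *Pik3cd*, *Pik3cg*, *Pik3ca*, *Akt1*, *Akt2* and *Pik3cb*. In pro-B cells *Inpp5d* was the most abundant, followed by *Pik3ap1*, *Pik3ca*, *Akt1*, *Pik3cg*, *Pik3r1*, *Pik3cd*, *Akt2* and *Pik3cb*. *Pik3r1* thus went from the first to the sixth place. No neighbours in either order were separated beyond their error, since the intervals of their most abundant transcripts overlapped in every case. Of the 36 pairs of genes, only *Pik3ca* and *Pik3cb* had intervals apart in pre-pro-B cells, and 6 pairs did in pro-B cells, each of them *Pik3cb* against a more abundant gene.

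Among the catalytic subunits, *Pik3ca* and *Pik3cb* are the broadly expressed ones, and *Pik3cd* and *Pik3cg* are known mainly from leukocytes. *Pik3cd* encodes the catalytic subunit that B cells use most downstream of their antigen receptor. Its FPKM was 45.2 in the pre-pro-B library against 12.4 in the pro-B library, which was 3.65-fold lower (log2 ratio -1.79). The level moved from the 84.5th to the 51.6th percentile of all genes counted. *Pik3cb* had an FPKM of 2.52 [0.0895 to 4.95] in the pre-pro-B library against 0.195 [0 to 0.472] in the pro-B library. The log2 ratio was -1.56, and the ratio of the FPKM themselves was 12.9, with the lower value under an FPKM of 1. *Pik3cb* was scarce in both libraries and lay at the 13.9th percentile at most. *Pik3cg*, whose product pairs with the regulatory subunits Pik3r5 and Pik3r6 and responds to G protein-coupled receptors, had an FPKM of 44.6 in the pre-pro-B library against 30.4 in the pro-B library (log2 ratio -0.54, within 2-fold). *Pik3ca*, the catalytic gene most often mutated in carcinomas, had an FPKM of 28.0 [6.01 to 49.9] in the pre-pro-B library against 32.9 [6.97 to 58.7] in the pro-B library. Its intervals nearly coincided.

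The summed FPKM of the 4 catalytic genes was 120.3 in the pre-pro-B library against 75.9 in the pro-B library. In pre-pro-B cells *Pik3cd* and *Pik3cg* held 37.6% and 37.1% of it, *Pik3ca* 23.2% and *Pik3cb* 2.09%. In pro-B cells *Pik3ca* and *Pik3cg* held 43.3% and 40.1%, *Pik3cd* 16.3% and *Pik3cb* 0.257%. The share of *Pik3cd* was thus lower and that of *Pik3ca* higher in pro-B cells, while *Pik3cg* kept a similar share. When each gene was taken as 1 transcript, the one with the highest mean FPKM over both libraries (NM_001164052 for *Pik3cd*), the share of *Pik3cd* was 23.2% in the pre-pro-B library against 4.01% in the pro-B library. *Pik3cd* was then the third in the pre-pro-B library, behind *Pik3cg* at 38.2% and *Pik3ca* at 35.4%, so both its share and its rank depended on how its transcripts were added.

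**Figure D2:**
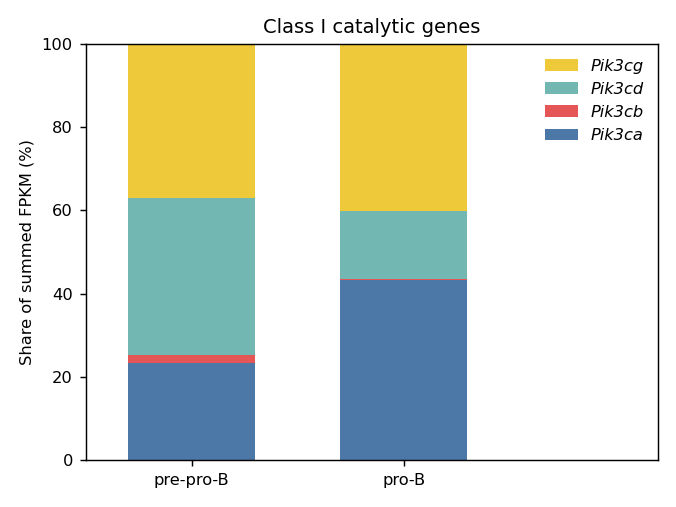
Stacked bars of the share (percent) of each class I catalytic gene in the summed FPKM of the 4 genes (vertical axis), 1 bar per library. *Pik3cd* takes 37.6% in pre-pro-B and 16.3% in pro-B cells, and *Pik3ca* takes 23.2% and 43.3%.

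*Pik3cd* (chromosome 4 of mm9, 149023277 to 149075738, minus strand) was listed with 6 transcripts. The most abundant in pre-pro-B cells was NM_001164052, with an FPKM of 18.4 [0.0266 to 47.1] against 2.31 [0 to 7.87] in pro-B cells, a 7.95-fold difference. In pro-B cells the most abundant was NM_001164049, which had an FPKM of 6.22 [0 to 22.1] in the pre-pro-B library against 5.95 [0.0736 to 14.7] in the pro-B library. These transcripts held 40.6% and 13.8% of the gene in pre-pro-B cells and 18.7% and 48.1% in pro-B cells. Of the others, NM_001029837 went from an FPKM of 6.39 to 0.127, NM_001164050 from 8.87 to 1.53, NM_008840 from 5.24 to 2.45, and NM_001164051 from 0.117 to a listed 0. The lower FPKM of *Pik3cd* in pro-B cells was thus unevenly spread over its transcripts, with NM_001164049 at a near equal level in both libraries, but all intervals overlapped between the cell types.

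The RefSeq promoter table (assembly GRCm38.p6) placed 3 start sites in *Pik3cd*, and the sequences were located on mm9 by exact match. The 250 bases before the most upstream of these (chr4:149072818-149073067, minus strand) are shown because this gene was called lower and its transcripts differed unevenly. That start, at 149072817, lies inside the bounds given above, whose upstream end is 149075738. None of the 3 starts falls on that end. Capitals mark CACCTG, an E-box of the kind bound by E proteins, which begins at position -67 from the start.

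Pik3cd, upstream start: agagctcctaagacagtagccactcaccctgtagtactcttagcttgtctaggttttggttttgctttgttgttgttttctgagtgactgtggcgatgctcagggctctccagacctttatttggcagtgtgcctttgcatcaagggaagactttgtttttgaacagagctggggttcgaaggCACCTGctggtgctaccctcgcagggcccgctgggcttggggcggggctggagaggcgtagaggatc

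The third start lay 35392 bases downstream and had 2 further CACCTG motifs before it, at positions -218 and -176. The start just after the shown sequence and the third one were the only *Pik3cd* starts with any of the 4 motifs searched. CACCTG on either strand was present in 20.2% of all 32851 promoter windows of the same length (250 bases before to 50 after a start), and in 3 of the 17 windows of the 9 genes. The table does not say which of the transcripts above begins at which start.

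*Pik3cg* (chromosome 12, 32858262 to 32893514, minus strand) was listed with 3 transcripts. NM_001146200 was the most abundant in both libraries, with an FPKM of 30.2 [0.826 to 65.4] in the pre-pro-B library against 22.3 [0.944 to 46.1] in the pro-B library. NM_020272 had an FPKM of 13.6 [0 to 37.5] and 2.45 [0 to 10.9], and NM_001146201 had 0.861 [0 to 5.96] and 5.71 [0 to 18.2], in the same order. Their shares of the gene were 30.4% and 1.93% in pre-pro-B cells and 8.04% and 18.7% in pro-B cells. The minor transcripts thus exchanged their order, within overlapping intervals. *Pik3ca* (chromosome 3, 32335073 to 32367408) and *Pik3cb* (chromosome 9, 98938821 to 99040630) had 1 transcript each, NM_008839 and NM_029094.

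**Figure D3:**
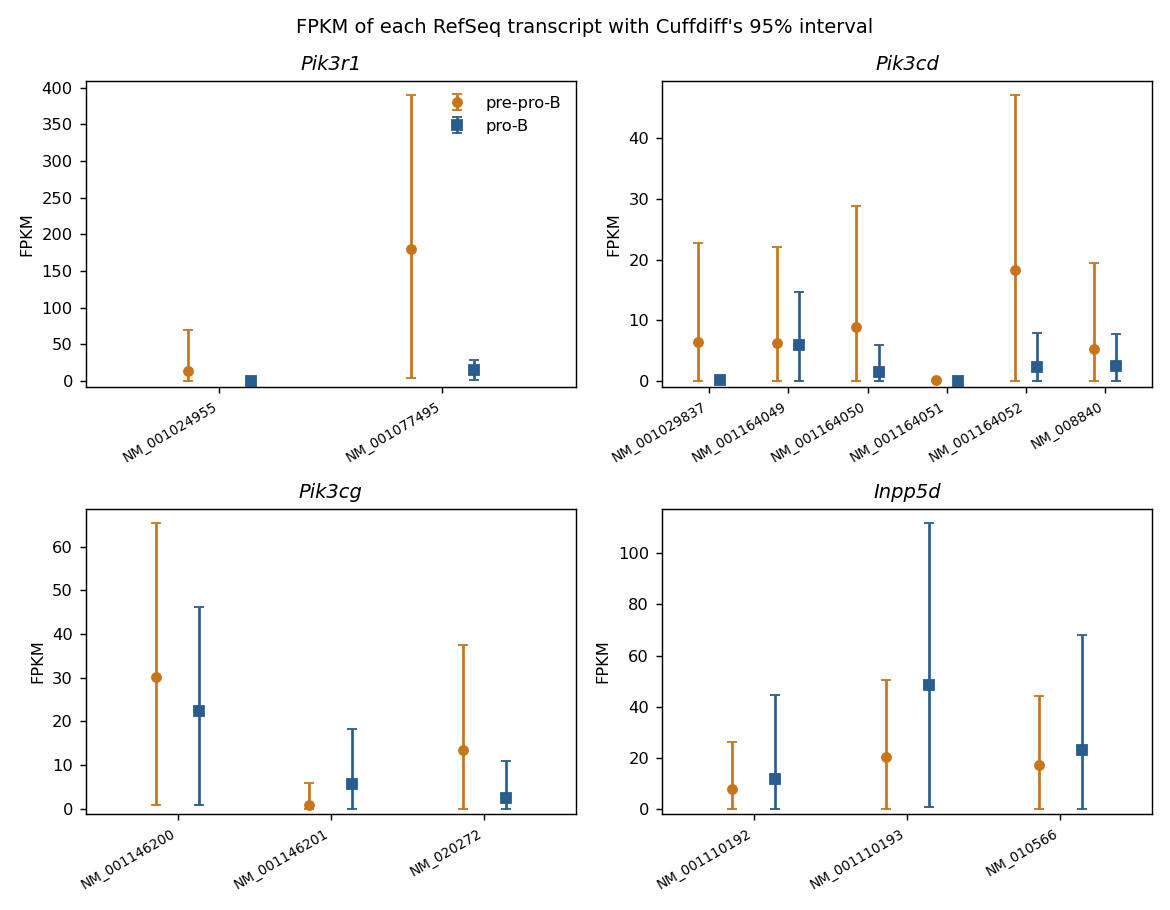
FPKM (vertical axis, linear, a scale per gene) of each transcript of *Pik3r1*, *Pik3cd*, *Pik3cg* and *Inpp5d*, with Cuffdiff's 95% confidence interval as a vertical line, circles for the pre-pro-B and squares for the pro-B library. The intervals of both libraries overlap for every transcript shown, including NM_001077495 of *Pik3r1* at 180 and 15.1.

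*Pik3r1* encodes the regulatory subunit that stabilises the class IA catalytic subunits and brings them to phosphorylated receptors. It had the lowest log2 ratio of the 9 genes with the pseudocount of 1, while without one *Pik3cb* was lower, at -3.69 against -3.67. Its FPKM was 193 in the pre-pro-B library against 15.1 in the pro-B library, 12.7-fold lower (log2 ratio -3.59). It fell from the 98.3rd to the 57.3rd percentile of all genes counted. The gene (chromosome 13, 102450718 to 102538172, minus strand) had 2 transcripts of 6913 and 5841 bases, and the longer one carried nearly all of the signal. The FPKM of NM_001077495 was 180 [4.41 to 390] in the pre-pro-B library against 15.1 [1.13 to 29.4] in the pro-B library. The FPKM of NM_001024955 was 13.1 [0 to 69.8] in pre-pro-B cells, or 6.78% of the gene, and it was listed at 0 in pro-B cells. In the mm9 annotation (GENCODE vM1) *Pik3r1* was the only one of the 9 genes with another gene inside its bounds, the protein-coding model *Gm11016* on the opposite strand. The libraries were strand-specific.

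*Pik3r1* had 2 start sites in the RefSeq table, 75587 bases apart. The 250 bases before each are shown because this abundant gene was called lower. The first, at chr13:102538173-102538422 on the minus strand, was 76.4% G and C, and the second, at chr13:102462586-102462835, was 42.4%. Neither window held any of the motifs searched, so no capitals are marked.

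Pik3r1, upstream start: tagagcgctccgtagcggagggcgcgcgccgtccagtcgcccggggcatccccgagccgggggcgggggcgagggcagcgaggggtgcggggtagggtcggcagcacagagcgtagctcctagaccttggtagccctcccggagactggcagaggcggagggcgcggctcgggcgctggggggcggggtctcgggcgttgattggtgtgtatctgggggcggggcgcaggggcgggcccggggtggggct
Pik3r1, downstream start: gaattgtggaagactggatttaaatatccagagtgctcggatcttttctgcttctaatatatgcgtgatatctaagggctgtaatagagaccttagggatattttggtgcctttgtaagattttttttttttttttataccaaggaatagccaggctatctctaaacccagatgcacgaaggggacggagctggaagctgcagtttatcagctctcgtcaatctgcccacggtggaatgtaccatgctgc

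The searched motifs were CCCNNGGG, the core of the site bound by Ebf1, CAGCTG and CACCTG, which are E-boxes, and GAGGAAGT, an Ets family site of the kind bound by PU.1. Each was searched on both strands. CCCNNGGG was present in 13.7% of all promoter windows and in 2 of the 17 windows of the 9 genes, which belonged to *Akt1* and *Pik3cd*. CAGCTG was present in 16.3% of all windows and in 2 of the 17, which belonged to *Akt2* and *Pik3ap1*. Such a match describes letters and not a bound site.

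None of the other 4 class I regulatory genes had a higher level in pro-B cells. *Pik3r2*, which also serves class IA enzymes, had an FPKM of 14.0 in the pre-pro-B library against 8.40 in the pro-B library. For *Pik3r3* the FPKM was 1.38 and 0.806. *Pik3r5* and *Pik3r6*, the partners of *Pik3cg*, were called lower in pro-B cells, from an FPKM of 4.08 to 1.05 and from 4.27 to 0.0361. *Pik3r1* had the highest FPKM of the class I regulatory genes in either library.

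*Pik3ap1* encodes BCAP, an adaptor that binds PI3 kinase regulatory subunits near the B cell receptor. It was among the most abundant genes of the 9 in both libraries and differed little between them. Its transcript NM_031376 (chromosome 19, 41348708 to 41459560) had an FPKM of 66.2 [3.10 to 183] in the pre-pro-B library against 73.6 [3.08 to 198] in the pro-B library (log2 ratio 0.15), at percentiles of 91.1 and 91.5. *Blnk*, another adaptor of the B cell receptor, which links Syk to its targets, was called higher, with an FPKM of 1.83 in the pre-pro-B library against 147 in the pro-B library.

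*Inpp5d* encodes SHIP1, the phosphatase of blood cells that converts PIP3 and restrains B cell receptor signalling. Its FPKM was 45.3 in the pre-pro-B library against 82.8 in the pro-B library, a 1.83-fold difference (log2 ratio 0.86, within 2-fold). This was the largest difference in favour of pro-B cells among the 9 genes. It had 3 transcripts (chromosome 1, 89516887 to 89617083, plus strand), and each had a higher FPKM in pro-B cells. NM_001110193 had an FPKM of 20.4 [0.0844 to 50.5] in the pre-pro-B library against 48.3 [0.876 to 112] in the pro-B library. NM_010566 had an FPKM of 17.2 [0.0409 to 44.2] and 22.9 [0 to 68.0], and NM_001110192 had 7.73 [0 to 26.3] and 11.6 [0 to 44.6]. NM_001110193 held 45.0% of the gene in the pre-pro-B library against 58.4% in the pro-B library. Taken alone, that transcript had a log2 ratio of 1.21, past the 2-fold limit that the sum did not reach.

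The Ets motif GAGGAAGT was present in 3.20% of all promoter windows and in 3 of the 17 windows of the 9 genes, which belonged to *Inpp5d* and *Pik3cg*. These sequences are shown because Ets sites of this form are bound by PU.1, a regulator of both the myeloid and the B lineage, and because both genes are known from blood cells. Capitals mark the motif, which begins at position -20 in *Inpp5d* (chr1:89516637-89516886, plus strand) and, as its reverse complement, at position -191 from the downstream start of *Pik3cg* (chr12:32893336-32893585, minus strand).

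Inpp5d: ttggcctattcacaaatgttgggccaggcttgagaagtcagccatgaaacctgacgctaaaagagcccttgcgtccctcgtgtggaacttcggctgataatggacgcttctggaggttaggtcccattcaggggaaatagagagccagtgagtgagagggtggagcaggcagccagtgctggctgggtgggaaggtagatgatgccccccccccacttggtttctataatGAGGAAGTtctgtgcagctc
Pik3cg, downstream start: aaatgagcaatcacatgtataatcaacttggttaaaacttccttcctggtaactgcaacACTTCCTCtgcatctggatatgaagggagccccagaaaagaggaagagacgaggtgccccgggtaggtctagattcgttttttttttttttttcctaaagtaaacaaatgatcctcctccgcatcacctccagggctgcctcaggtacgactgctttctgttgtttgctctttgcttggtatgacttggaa

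The start of *Pik3cg* that lies 189 bases further upstream shares this site, at position -2, so the 3 windows with the motif hold 2 different sites. With 1.47-fold less *Pik3cg* and 1.83-fold more *Inpp5d* in pro-B cells, the genes that hold the motif lay on opposite sides of equality, both within 2-fold.

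Other lipid phosphatases were called in about the same shares as all genes. Of 19 genes of this kind counted outside the 9, 18 reached 1 FPKM in a library, of which 2 were called higher (11.1%, beside 12.2% of all genes) and 4 lower (22.2%, beside 19.1%) in pro-B cells, with a median log2 ratio of -0.59. *Inppl1*, the relative of *Inpp5d*, had an FPKM of 2.09 in the pre-pro-B library against 44.3 in the pro-B library (log2 ratio 3.88). *Ocrl* was also higher, and *Synj2*, *Inpp4a*, *Inpp4b* and *Inpp5k* were lower. *Inpp4b*, which acts on the lipid that SHIP enzymes make, had an FPKM of 2.31 and 0.0195.

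Akt kinases are the main effectors of PIP3 in growth and survival. *Akt1* (chromosome 12, 113892032 to 113912487) had an FPKM of 24.7 in the pre-pro-B library against 30.6 in the pro-B library (log2 ratio 0.30). All of it was assigned to NM_009652, with intervals of [2.30 to 47.8] and [2.43 to 59.2], while NM_001165894 was listed at 0 in both libraries. *Akt2* (chromosome 7, 28376579 to 28424472) had an FPKM of 11.2 and 8.59 (log2 ratio -0.35). Its transcripts NM_007434 and NM_001110208 shared the gene nearly evenly, with 54.4% and 45.6% in pre-pro-B cells and 46.6% and 53.4% in pro-B cells. The FPKM of NM_007434 was 6.09 [0.0120 to 15.0] and 4.001 [0 to 11.0], and that of NM_001110208 was 5.12 [0.0231 to 13.5] and 4.58 [0.0230 to 11.8]. Neither kinase differed beyond 2-fold.

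The genes around these 9 were counted from 7 lists of the pathway, 92 genes in all, of which 88 reached 1 FPKM in a library. In pro-B cells 11 of them were called higher (12.5%, beside 12.2% of all genes) and 28 lower (31.8%, beside 19.1%), and their median log2 ratio was -0.41 (beside -0.14). Of their 109 transcripts with at least 1 FPKM in a library, 11 had intervals that did not overlap (10.1%, beside 4.4% of all such transcripts), among them those of *Foxo1*, *Blnk*, *Flt3*, *Dock8* and *Plekha1*. The 11 also include both transcripts of *Kit* and 1 of *Sgk1*, a gene within 2-fold. For 1 *Kit* transcript in pro-B cells and for that of *Sgk1* in pre-pro-B cells the interval was [0 to 0]. It left out their own FPKM of 0.000119 and 0.00122.

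**Figure D4:**
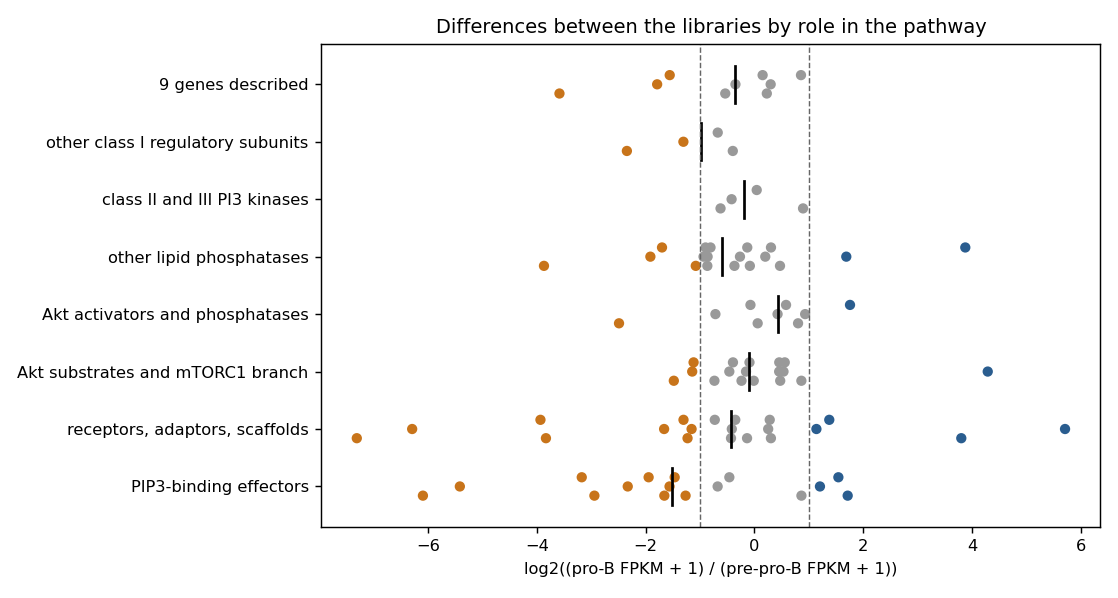
Log2 ratio of FPKM + 1, pro-B over pre-pro-B (horizontal axis), of the 9 genes and of each gene counted in the lists of the pathway, 1 point per gene, orange where called lower, blue where called higher and grey within the dashed 2-fold limits at -1 and 1, with the median of each row as a black bar. The row named PIP3-binding effectors also holds *Plekha1* and *Plekha2*, which bind mainly the lipid that SHIP enzymes make. Its genes lie mostly below -1, with 10 of 16 called lower (beside 19.1% of all genes), and the class II and III kinases all lie within the limits.

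Of the 20 receptors, adaptors and scaffolds counted, 4 were called higher (beside 12.2% of all genes), namely *Cr2*, *Blnk*, *Bank1* and *Irs2*, and 8 lower (beside 19.1%), namely *Flt3*, *Kit*, *Dok2*, *Dok3*, *Cblb*, *Irs1*, *Cbl* and *Lyn*. *Flt3*, the receptor of Flt3l, had an FPKM of 303 in the pre-pro-B library against 0.916 in the pro-B library, and *Kit*, the receptor of Scf, had 107 and 0.377. These are the receptors of the cytokines that only the pre-pro-B culture received, and both are also progenitor markers above. *Il7r*, the receptor of the cytokine given to both cultures, had an FPKM of 349 and 424.

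Of the 16 genes counted in the list named PIP3-binding effectors, 10 were called lower in pro-B cells (62.5%, beside 19.1% of all genes). Which lipid each product binds was not examined here. A further 3 were called higher (18.8%, beside 12.2%), and the median log2 ratio was -1.51. *Plekha1* and *Plekha2*, counted here, bind mainly the lipid that SHIP enzymes make rather than PIP3. The lower ones were the kinase *Tec*, the phospholipase *Plcg2*, the adaptors *Dapp1*, *Plekha1* and *Skap2*, the exchange factors *Vav1*, *Vav3*, *Prex1* and *Dock8*, and *Arap1*. *Dock8* had an FPKM of 80.4 in the pre-pro-B library against 0.190 in the pro-B library, *Plekha1* had 58.1 and 0.383, and *Dapp1*, also known as Bam32, had 93.5 and 9.46. The higher ones were *Plekha2*, *Vav2* and *Cyth1*. *Btk*, the effector of the B cell receptor, stayed within 2-fold, with an FPKM of 12.6 and 8.85. Several of the lower genes are also expressed in T or myeloid cells, whose summed markers were lower in the pro-B library too. *Tyrobp*, *Fcer1g*, *Mpo*, *Lyz2*, *Itgam*, *Cd3g*, *Tcf7*, *Cd4* and *Gata3* were each called lower in pro-B cells. The other markers of these lists, *Cd3e*, *Cd8a* and *Csf1r*, were near 0 in both libraries. The part of such cells in the lower effector genes was not tested.

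Around and downstream of Akt, most genes counted lay within 2-fold, as did most of all genes, of which 31.3% were called in either direction. Of 17 genes listed as Akt substrates, mTORC1 genes or kinases related to Akt, 1 was called higher, *Foxo1* (5.88%, beside 12.2% of all genes). A further 3 were called lower, namely *Foxo3*, *Akt1s1* and the related kinase *Sgk3* (17.6%, beside 19.1%). The median log2 ratio was -0.09. *Foxo1*, which drives early B cell genes and is held in the cytoplasm when Akt is active, had an FPKM of 1.78 [0.00712 to 3.59] in the pre-pro-B library against 53.3 [12.5 to 94.1] in the pro-B library. Its intervals did not overlap. Among the 9 activators and phosphatases of Akt counted, *Mtor* was called higher (11.1%, beside 12.2% of all genes). *Prr5*, a subunit of mTORC2, was called lower (11.1%, beside 19.1%). *Pdpk1*, the kinase that activates Akt, had an FPKM of 47.6 and 49.7. None of the 4 class II and III PI3 kinase genes counted was called (beside 31.3% of all genes).

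The genes with the most similar pair of levels were found by the distance between the log2(FPKM + 1) values over the 2 libraries. For *Pik3r1*, the gene with the lowest log2 ratio of the 9 at this pseudocount, they were *Ctr9* (FPKM 209 in pre-pro-B and 17.2 in pro-B cells), *Calcrl* (188 and 12.6) and *Cd47* (204 and 19.8), at distances of 0.21, 0.25 and 0.37. For *Inpp5d*, with the highest ratio, they were *Eif1ax* (45.9 and 80.8), *Nfatc3* (45.3 and 85.9) and *Cops5* (43.7 and 81.9), at distances of 0.04, 0.05 and 0.05. With only 2 libraries this likeness says no more than that both levels were close.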

How the data were processed

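The authors deposited FPKM per RefSeq transcript with Cuffdiff's 95% confidence limits, for 2 libraries of rRNA-depleted, strand-specific total RNA read as 97 bp single ends. Per the submitters' processing notes, reads were aligned to mm9 with TopHat 1.5 and quantified with Cuffdiff 2.1.1. A further deposited table holds the authors' fold changes, p-values and q-values between the cell types and was not used. The labels state about 90000000 reads per library, but the fragments behind a single value are unknown, since only FPKM were used, and no counting interval is given.

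Of 30485 rows, the 26968 with NM_ identifiers were used (26580 accessions, 26173 of them named by a RefSeq gene table of assembly GRCm38.p6, used for names only). FPKM were summed per gene, which gave 20250 genes, 3836 with several transcripts, and 10528 with at least 1 FPKM in a library. The pseudocount was 1 and the fold called was 2. Cuffdiff's status was not OK in 250 rows of the pre-pro-B library and in 255 of the pro-B library, none of them among the 9 genes.

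Groups came from the labels. With 1 library per cell type no test was made. The 9 genes and the gene lists were chosen with earlier results of these data known. Genes were named by rule: the 9 genes, the targeted genes, every pathway gene called different, *Inppl1*, *Pdpk1*, *Pik3r2* and *Foxo1*, markers at or near 0 that define a type, and the 3 nearest genes to the members with the highest and lowest ratio. *Pik3r3*, *Il7r*, *Btk*, *Cd34*, *Satb1*, *Tyrobp*, *Fcer1g*, *Mpo*, *Lyz2*, *Tcf7*, *Cd3g*, *Cd4* and *Pdgfrb* were named outside it, after their values were seen. The same holds for *Itgam*, *Gata3*, *Pik3c2b* and *Sgk1*. Promoter sequences of RefSeq (GRCm38.p6) were found for all 9 genes, in 17 windows, and each window matched mm9 exactly at 1 place. Protein sequences were not used here, and some genes planned for the lists, with the shares of the Akt kinases, are not reported here and were left out of the counts of the lists. Alternatives changed the pseudocount, the filter, the scaling, the transcripts taken, the copies of an accession, the status and the fold. Python 3.11.15, numpy 2.4.6, pandas 2.3.3 and matplotlib 3.10.9 were used. The code of the fold counts was run on simulated levels with exact changes and no noise. That run checks the code and says nothing of false calls between single libraries.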

Additional observations from a re-analysis of the deposited data

How the results depend on the processing

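No log2 ratio of the 9 genes changed sign under any alternative run, but without a pseudocount *Pik3cb* and not *Pik3r1* had the lowest. The log2 ratio of *Pik3r1* ranged from -3.68 to -3.48, that of *Pik3cd* from -2.55 to -1.70 and that of *Pik3cb* from -3.69 to -1.52, so all 3 remained past 2-fold. *Pik3ca*, *Pik3cg*, *Pik3ap1*, *Akt1* and *Akt2* remained within 2-fold. *Inpp5d* ranged from 0.76 to 1.21. With 1 transcript per gene, the one with the highest mean FPKM over both libraries, or with a limit of 1.5-fold, 1 of the 9 genes (*Inpp5d*) was called higher. The 1.5-fold limit called 2114 of all genes higher and 3136 lower. A minimum FPKM of 1 in both libraries left out *Pik3cb*, so that 2 of 8 genes were lower, and it left 16 of the pathway genes and 998 of all genes called lower, with 47.9% of the calls of all genes higher, against 38.9% with the filter used. With that transcript alone, the share in pre-pro-B cells was 35.4% for *Pik3ca*, 3.19% for *Pik3cb* and 23.2% for *Pik3cd*, and in pro-B cells it was 4.01% for *Pik3cd*. Scaling to TPM shifted log2 ratios without a pseudocount by -0.09 and scaling by the median ratio by 0.09, and with the pseudocount the shift was smaller for genes with a low FPKM. No paired analysis was possible because each cell type had 1 library, which also left no replicate to leave out. The planned comparison of protein sequences was not run. Wide Cuffdiff intervals limit the division of a gene among its transcripts: the lower limit was 0 for 10 of the 21 transcripts in pre-pro-B cells and for 13 in pro-B cells.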

Other observations

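The summed FPKM of the class IA regulatory genes was set against that of the class IA catalytic genes, a ratio chosen after the values were seen. *Pik3r1*, *Pik3r2* and *Pik3r3* summed to an FPKM of 208 in the pre-pro-B library against 24.3 in the pro-B library, while *Pik3ca*, *Pik3cb* and *Pik3cd* summed to 75.7 and 45.5. The ratio of regulatory to catalytic FPKM was thus 2.75 in the pre-pro-B library against 0.536 in the pro-B library, and with 1 transcript per gene, the one with the highest mean FPKM over both libraries, it was 3.99 and 0.688. For the class IB enzyme, *Pik3r5* and *Pik3r6* together had 0.187 of the FPKM of *Pik3cg* in the pre-pro-B library against 0.0358 in the pro-B library. Both ratios were lower in the pro-B library. They compare RNA levels in 1 library each, without a replicate check, and say nothing of protein.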
